A study of Saccharomyces cerevisiae with 18 samples.

Results

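The response of budding yeast to 4 h of PPZ1 overexpression was described from 6 of the 18 libraries of the series, the 3 ZCZ01 libraries and the 3 wild type libraries collected 4 h after the addition of galactose, and over all genes of the count tables. Wild type was BY4741, a haploid MATa laboratory strain that carries deletions in HIS3, LEU2, MET17 (also named MET15) and URA3. ZCZ01 is derived from BY4741 and differs from it in the promoter of PPZ1, which was replaced by the galactose-inducible GAL1-10 promoter. All cultures were grown on YPD, transferred to raffinose, a sugar that neither induces nor strongly represses the GAL genes, and given 2% galactose, so both strains saw the same sugars and only ZCZ01 had PPZ1 tied to galactose. PPZ1 in ZCZ01 is thus driven by a GAL promoter, so its level cannot be read apart from the state of the galactose genes.

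Ppz1 is a Ser/Thr protein phosphatase of fungi, related to the type 1 phosphatases. It is best known for restraining potassium uptake and salt tolerance, and its excess is toxic and blocks growth before S phase. Its activity is held in check by the inhibitory subunits Hal3, encoded by SIS2, and Vhs3. The comparison at 4 h asks how the transcriptome stood when the phosphatase had been present for the longest time sampled.

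Libraries were QuantSeq 3′ libraries, which count 1 tag per transcript near its end, and held between 955972 and 1874687 counts each at 4 h. Levels are given as TMM-normalized counts per 1e6 counts (CPM), in the order of experiments 1, 2 and 3. They are shares of each library, so a change in a level cannot be told apart from a change in the total mRNA of a cell. Times were taken from the library names in the tables. Sample titles give another time for 12 of the 18 libraries, and of the 6 libraries at 4 h only those of experiment 3 carry that time in their titles. With those times 1 gene was higher and 0 were lower. At 4 h the libraries of experiments 2 and 3 were closely alike (chi-square per degree of freedom of 2.22 in wild type and 1.22 in ZCZ01, against 38.4 to 44.6 for either of them with experiment 1). They were kept as 2 replicates, as labelled. The closer pair still differed beyond counting noise (p = 1.77e-27, chi-square test over genes), but repeated libraries of 1 RNA sample can do so too. There were therefore 5 fits, with all 3 experiments, with each experiment left out in turn, and with experiments 2 and 3 summed. Many counts are also given over calls that passed in every one of these 5 fits. Such calls are described below as held. The sets of libraries are described as experiments and as replicates. The sources used here do not say whether experiments 2 and 3 were separate cultures, so p-values measure the spread between these libraries. Of the deleted genes, MET17 had 0 counts in every library and LEU2 had 0 counts in 5 and 1 count in 1. HIS3 had 77 to 286 counts and URA3 1 to 20. Probes whose sequence recurs in the genome were another limit. In some probes at least 90% of the 50-base windows near the 3′ end occur elsewhere, and 70 of the 129 of these that carried counts in experiments 2 and 3 were at 0 in all libraries of experiment 1.

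Of 5658 genes tested, 577 were at least 2-fold higher in ZCZ01 at 4 h (10.2%) and 589 at least 2-fold lower (10.4%) at an adjusted p under 0.05 (quasi-likelihood test of edgeR, Benjamini-Hochberg over all genes). At the adjusted p alone, which was used for single genes and for members of gene lists, 1125 were higher (19.9%) and 1212 lower (21.4%), together 41.3% of the genes tested. The held calls were 455 higher (8.04%) and 561 lower (9.92%). Of these, 12 higher and 4 lower had 0 counts in both libraries of experiment 1, so that without experiment 2 or 3, or with both summed, they rested on 1 library of each strain, and 0 of them belonged to a gene list. All 3 ZCZ01 libraries lay above all 3 wild type libraries for 1087 genes (19.2%) and below them for 1137 (20.1%), which is the background for statements below that groups did not overlap. The median log2 fold change over all genes was 0.003. Log2 ratios of single experiments correlated across genes at 0.689 between experiments 1 and 2, 0.732 between 1 and 3 and 0.801 between 2 and 3, as a description over genes that are not independent. Of the 577 genes at least 2-fold higher, 106 had probes with some recurring sequence, against 305 of all genes tested, and 43 had 0 counts in both libraries of experiment 1. With every such probe left out, 475 genes were higher and 568 lower of 5347 tested.

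**Figure D1:**
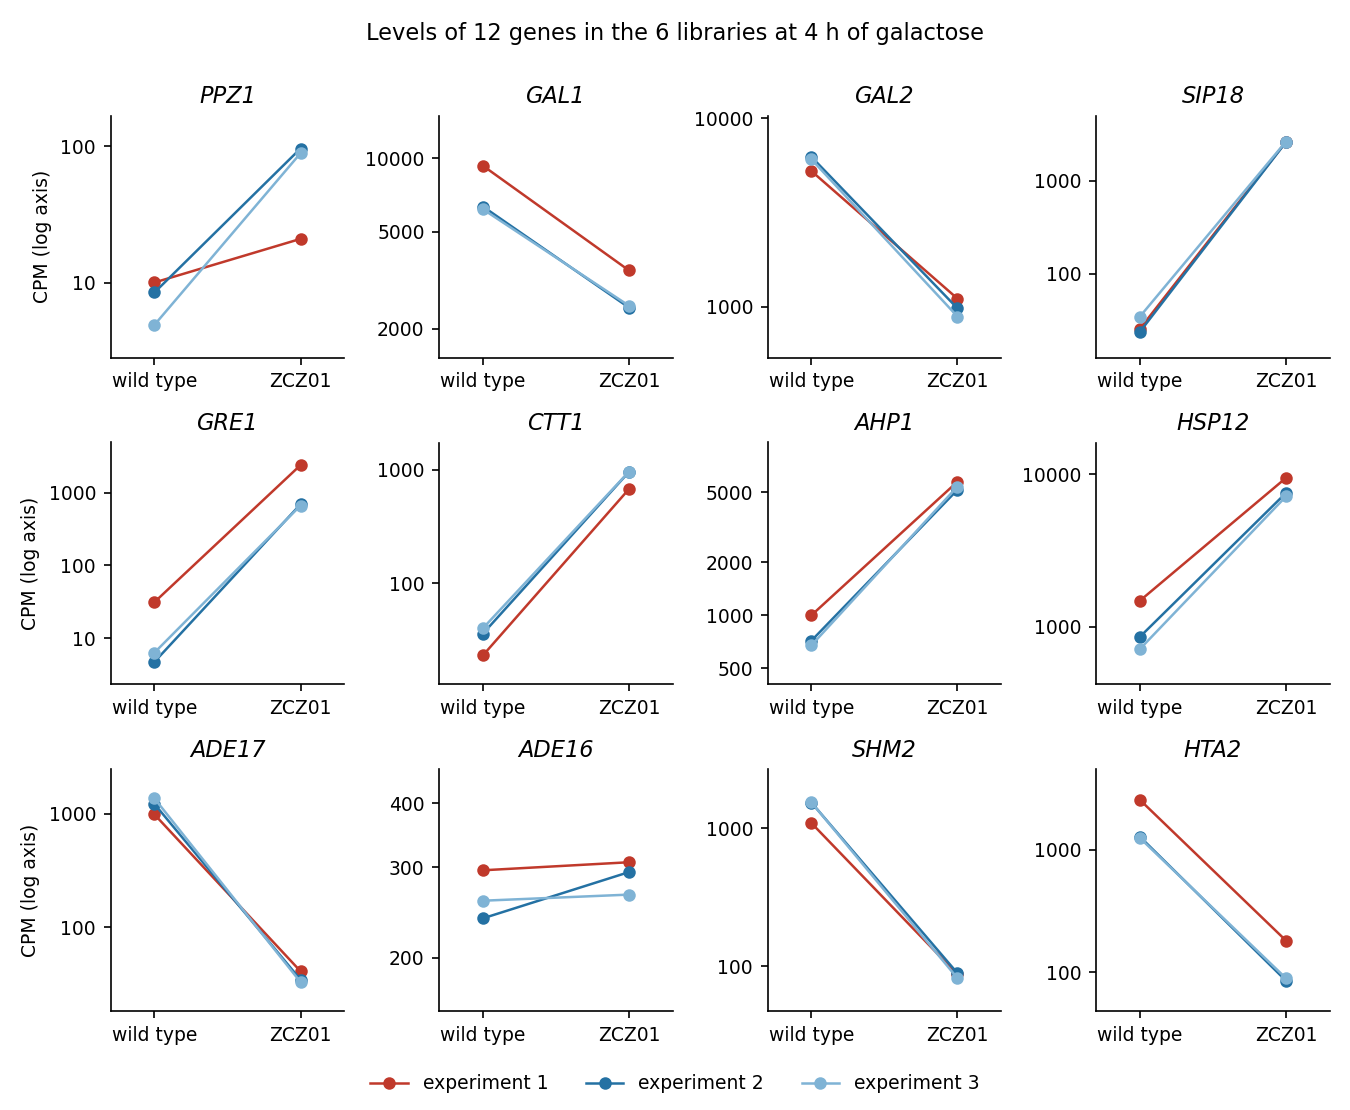
Levels of 12 genes in each of the 6 libraries at 4 h (vertical axes, CPM on a log scale), with wild type and ZCZ01 on the horizontal axis, points for libraries and lines joining the libraries of 1 experiment. ADE16 lay between 239 and 307 CPM in all 6 libraries, while SIP18 rose from between 23.6 and 34.4 CPM to between 2604 and 2639 CPM and HTA2 fell in every experiment.

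PPZ1, which lies at chrXIII:239458-241536 on the minus strand of R64, was the check of the groups. Its level was 10.05, 8.49 and 4.91 CPM in wild type and 20.98, 96.5 and 89.1 CPM in ZCZ01. All ZCZ01 libraries lay above all wild type libraries, and the ZCZ01 library of experiment 1 was the lowest of the 3. The log2 fold change was 2.89 ± 0.56 (SE, adjusted p = 0.00114), against 5.08 at 2 h, and the difference between both times did not pass (adjusted p = 0.105). Of the other genes of the phosphatase, VHS3 rose by 1.06 on the log2 scale (adjusted p = 0.00165), from 88.6, 160.3 and 125 to 280.5, 249.8 and 229.5 CPM. SIS2, which codes for Hal3, did not pass, and its log2 fold change was 0.36 (adjusted p = 0.244). PPZ2, the paralogous phosphatase, had 0.21 (adjusted p = 0.381). CAB3, a subunit that acts with Hal3 and Vhs3 in coenzyme A synthesis, had -0.14 (adjusted p = 0.711). The VHS3 and CAB3 probes overlap genes on the opposite strand and SIS2 overlaps YKR073C on its own strand, and whether counting used the strand is not stated in the sources used here.

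The galactose genes were lower in ZCZ01 although both strains had received the same galactose. Galactose is taken up by the permease Gal2 and enters glycolysis through the kinase Gal1, the transferase Gal7 and the epimerase Gal10, and the activator Gal4 turns these genes on through sites of the form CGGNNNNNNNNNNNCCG. All 7 genes of the list have this motif within 500 bases before their start codon on either strand, as do 2.94% of 5984 promoters of that length, and a match is a description and not a bound site. The stretches of the RefSeq R64 genome that hold the motif copies of GAL1 and GAL2 are given 5′ to 3′ on the coding strand, at chrII:278558-278631 and chrXII:289786-289910, because the promoter that drives PPZ1 in ZCZ01 is of this family. Capitals mark the motif, with overlapping copies run together.
GAL1: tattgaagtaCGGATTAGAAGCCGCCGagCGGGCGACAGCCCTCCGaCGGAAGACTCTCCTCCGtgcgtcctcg
GAL2: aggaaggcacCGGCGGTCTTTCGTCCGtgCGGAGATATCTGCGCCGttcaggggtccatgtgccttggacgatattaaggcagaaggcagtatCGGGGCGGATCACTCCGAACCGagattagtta

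Of the 7 galactose genes 6 fell and 0 rose, with a median log2 fold change of -1.48 against 0.003 over all genes, and 5 of the falls held. GAL2 fell from 5252, 6248 and 6062 to 1105, 981 and 888 CPM, a log2 fold change of -2.56 ± 0.13 (adjusted p = 6.42e-09). GAL1 was at 9303, 6331 and 6170.2 CPM in wild type and 3464, 2439 and 2483 CPM in ZCZ01, and fell by 1.37 ± 0.09 (adjusted p = 1.1e-07). The 3 libraries of each strain did not overlap for either gene, and GAL1 remained an abundant mRNA in ZCZ01. GAL10 fell by 1.68, GAL7 by 1.48 and GAL3, the sensor of galactose, by 2.12 on the log2 scale. GAL80, the repressor of Gal4, was at 97.5, 192 and 210.5 CPM in wild type and 64.6, 142 and 124 CPM in ZCZ01. Its fall of 0.60 (adjusted p = 0.0205) was not held and its groups overlapped. GAL4 itself had 13.6, 13.2 and 18.2 CPM in wild type and 7.73, 10.8 and 9.73 in ZCZ01 and did not pass (log2 fold change -0.68, adjusted p = 0.137).

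Genes for other sugars also fell. The list of glucose repression and sugar kinase genes had 8 of 19 members lower, 7 of them held, and 1 higher. HXK2, the main hexokinase and a mediator of glucose repression, was at 1829, 619 and 609 CPM in wild type and 273, 71.6 and 92.7 CPM in ZCZ01 (log2 fold change -2.85 ± 0.17, adjusted p = 2.47e-08). It was lower in ZCZ01 in each experiment, experiment 1 had the highest level in both strains, and the groups did not overlap. HXK1 fell by 1.76 and the glucokinase gene GLK1 by 1.64 on the log2 scale. SUC2, the invertase that cleaves sucrose and raffinose, fell from 41.96, 25.5 and 33.7 to 11.04, 8.10 and 6.15 CPM (log2 fold change -2.01, adjusted p = 0.000606). The maltose genes MAL12, MAL31, MAL32 and MAL33 fell by 2.16, 1.45, 2.55 and 2.46, although MAL12, MAL32 and MAL33 share sequence with other genes. MIG2, a glucose-induced repressor, was the member that rose, from 5.32, 1.89 and 4.21 to 11.04, 16.2 and 15.4 CPM (log2 fold change 1.81, adjusted p = 0.0174), a call that was not held.

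Among hexose transporters 5 of 10 tested rose, 3 of them held, and 2 fell. HXT5, a transporter made in slow growth and starvation, rose from 3.55, 8.49 and 6.31 to 86.1, 271 and 242 CPM (log2 fold change 4.98, adjusted p = 1.24e-07). The ZCZ01 library of experiment 1 was lower than the others but stood far above every wild type library. HXT4 rose by 3.25 ± 0.32 and HXT7, a high-affinity transporter, fell by 0.74 ± 0.19 on the log2 scale, with the caution that HXT7 and HXT6 share sequence. RGT2, a sensor of high glucose, rose by 1.72 and SNF3, a sensor of low glucose, fell by 1.31, and the second of these calls was lost without experiment 2.

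Purine synthesis and the one-carbon pathway that feeds it were lower in nearly all members. De novo synthesis builds the purine ring in a chain of ADE enzymes and takes carbon units from tetrahydrofolate, which the serine hydroxymethyltransferase Shm2, the glycine cleavage enzymes Gcv1, Gcv2 and Gcv3 and the dehydrogenase Mtd1 supply. The activator Bas1, acting with Pho2, binds TGACTC in front of these genes and of HIS4. TGACTC was found in 12.7% of all 5984 promoters of 500 bases on either strand, in 10 of the 11 purine promoters and in 5 of the 7 one-carbon promoters. It was no more frequent among all genes at least 2-fold lower, at 12.7% of 576 promoters. For genes at least 2-fold higher it was in 13.5% of 548. Stretches that hold the copies of 2 strongly lowered members and of HIS4 are printed on the coding strand, at chrXIII:509442-509597 for ADE17, chrXIII:637199-637276 for GCV2 and chrIII:68517-68598 for HIS4. Capitals mark TGACTC or its complement GAGTCA.
ADE17: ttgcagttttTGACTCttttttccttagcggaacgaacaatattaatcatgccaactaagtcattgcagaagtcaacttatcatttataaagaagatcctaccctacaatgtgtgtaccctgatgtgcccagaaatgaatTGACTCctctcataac
GCV2: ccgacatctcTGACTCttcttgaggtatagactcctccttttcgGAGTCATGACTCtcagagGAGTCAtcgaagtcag
HIS4: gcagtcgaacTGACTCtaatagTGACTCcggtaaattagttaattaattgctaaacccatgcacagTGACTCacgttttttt

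Of the 11 purine genes 10 fell, 9 of them held, and 0 rose, with a median of -1.80. ADE17, an AICAR transformylase of the last steps to IMP, was at 983, 1215 and 1360.5 CPM in wild type and 40.9, 34.4 and 32.8 CPM in ZCZ01. The ZCZ01 libraries lay close together and far below every wild type library, and the log2 fold change was -5.03 ± 0.23 (adjusted p = 2.19e-09). Its paralogue ADE16 was at 296, 239 and 258 CPM in wild type and 307, 294 and 265 CPM in ZCZ01 and did not pass (log2 fold change 0.13, adjusted p = 0.561). ADE16 was also the only member whose promoter held no TGACTC, and the 10 members with the motif had a median of -2.01. ADE1, for the SAICAR synthetase, fell from 451, 585 and 612 to 43.6, 64.8 and 54.8 CPM (log2 fold change -3.34, adjusted p = 8.65e-09). ADE13, which codes for adenylosuccinate lyase, was at 236, 460.1 and 428 CPM in wild type and 26.5, 62.8 and 61.5 CPM in ZCZ01 (log2 fold change -2.93, adjusted p = 1.55e-06). ADE12, the adenylosuccinate synthase that makes AMP from IMP, fell by 2.58 ± 0.17. The groups did not overlap for these 3 genes. ADE2, ADE4, ADE5,7, ADE6 and ADE8 fell by 2.22, 1.80, 1.79, 1.52 and 1.44 on the log2 scale. ADE3, a cytosolic C1-tetrahydrofolate synthase, fell by 0.41 (adjusted p = 0.0386), a call that was lost without experiment 2 or 3 and with both summed.

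In the one-carbon list 6 of 7 fell, 5 of them held, with a median of -2.63. SHM2 was at 1093, 1539 and 1544 CPM in wild type and 87.2, 89.1 and 81.97 CPM in ZCZ01, a log2 fold change of -4.00 ± 0.17 (adjusted p = 2.02e-09). GCV2 fell from 199, 390.3 and 422 to 27.6, 41.2 and 36.4 CPM (log2 fold change -3.22, adjusted p = 8.77e-09). GCV1, GCV3 and MTD1 fell by 3.14, 2.63 and 2.50, and for each of these 5 genes the groups did not overlap. These are the 5 members with TGACTC. The 2 members that lack it were MIS1, with a log2 fold change of -0.46 (adjusted p = 0.0187, not held), and SHM1, with 0.22 (adjusted p = 0.393). HIS4, a histidine gene that holds 3 copies of TGACTC, fell from 336, 290.4 and 263 to 84.5, 66.2 and 75.8 CPM (log2 fold change -1.97, adjusted p = 5.86e-07).

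Of 9 genes of the branch from IMP to GMP and of purine salvage 5 fell, 3 of them held, and 1 rose. IMD3, an IMP dehydrogenase, was at 251, 271 and 288 CPM in wild type and 131, 139.7 and 124 CPM in ZCZ01 (log2 fold change -1.04, adjusted p = 6.1e-05). HPT1, the hypoxanthine-guanine phosphoribosyltransferase, fell by 1.16 (adjusted p = 0.000153). GUD1, a guanine deaminase, was the member that rose (log2 fold change 1.2, adjusted p = 0.0137), and that call was lost without experiment 2. GUA1, the GMP synthetase, had a log2 fold change of -0.30 (adjusted p = 0.496), with 334, 152 and 149 CPM in wild type and 114, 180.3 and 196 in ZCZ01, so that experiment 1 went down while the other 2 went up.

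**Figure D2:**
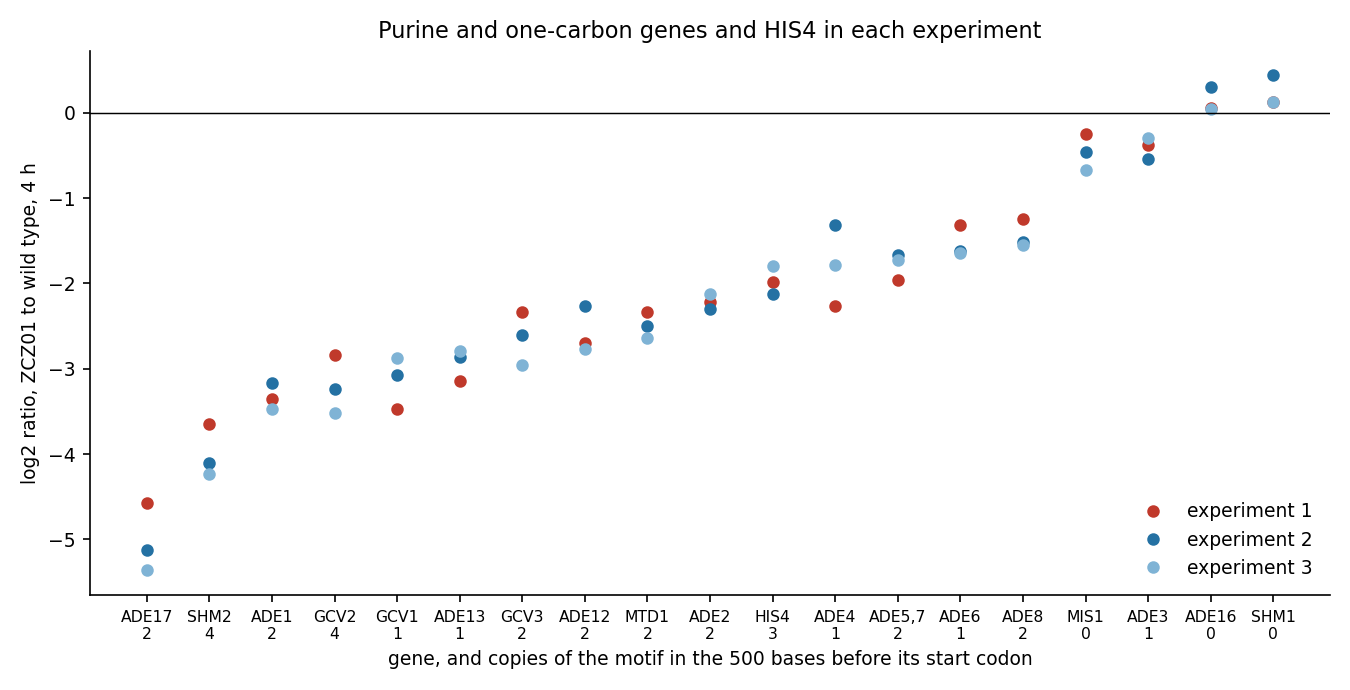
Log2 ratio of ZCZ01 to wild type at 4 h (vertical axis) in each of the 3 experiments for the purine and one-carbon genes and HIS4 (horizontal axis), with the number of TGACTC copies in 500 bases under each name. ADE16 and SHM1, which have no copy, lie near 0, MIS1, which also has no copy, had a small fall, and ADE17 and SHM2 are the lowest.

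Several genes of the defence against peroxide were higher. Catalases and peroxiredoxins break down hydrogen peroxide, and thioredoxins and glutathione reduce some of the enzymes that do so, but not catalases. Of 5 catalase and superoxide dismutase genes 4 rose, 2 of them held, and 0 fell. The cytosolic catalase gene CTT1 was at 23.05, 35.8 and 39.99 CPM in wild type and 677, 960.0 and 964 CPM in ZCZ01, a log2 fold change of 4.73 ± 0.18 (adjusted p = 4.42e-10). The peroxisomal catalase gene CTA1 rose from 4.14, 6.60 and 1.40 to 31.5, 47.9 and 48.2 CPM (log2 fold change 3.40, adjusted p = 6.23e-05). In both cases all ZCZ01 libraries were above all wild type libraries. SOD1 and SOD2 rose by 0.69 and 0.54, calls that were not held, and CCP1, the cytochrome c peroxidase gene, was at -0.51 (adjusted p = 0.0554).

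Of 11 peroxiredoxin and thioredoxin genes 7 rose, 5 of them held, and 2 fell, 1 of them held. TSA2, a stress-inducible peroxiredoxin, rose from 11.8, 21.7 and 20.3 to 334, 424 and 472 CPM (log2 fold change 4.54, adjusted p = 5.12e-09), and its probe overlaps PPN1 on the opposite strand. AHP1, another peroxiredoxin, was at 999, 717 and 674 CPM in wild type and 5742, 5164 and 5389 CPM in ZCZ01 (log2 fold change 2.79, adjusted p = 7.65e-09). The sulfiredoxin gene SRX1 rose by 2.61 ± 0.27, and the mitochondrial thioredoxin reductase gene TRR2 by 1.43 ± 0.18. These 4 genes had no overlap between groups. The thioredoxin genes went opposite ways, TRX2 with 0.70 (adjusted p = 0.000953) and TRX1 with -1.22 (adjusted p = 3.53e-05), and both calls held. DOT5, a nuclear peroxiredoxin, fell by 0.68 (adjusted p = 0.00836), which was not held.

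The glutathione system was mixed, with 7 of 16 genes higher, 3 of them held, and 4 lower, none of them held. GPX1, a glutathione peroxidase, was at 45.5, 25.5 and 34.4 CPM in wild type and 194, 126 and 120.4 CPM in ZCZ01 (log2 fold change 2.06, adjusted p = 1.16e-06). GSH1, the first enzyme of glutathione synthesis, rose by 1.16 and GSH2, the next one, fell by 0.81 on the log2 scale, and the fall was lost without experiment 3. The transferase gene GTT2 rose from 5.32, 6.60 and 4.91 to 12.7, 19.6 and 19.98 CPM (log2 fold change 1.60, adjusted p = 0.00453), a call lost without experiment 3. Of 13 aldehyde and aldo-keto reductase genes 5 rose and 4 fell. ARI1, an aldehyde reductase, rose from 7.68, 6.60 and 4.91 to 62.4, 82.4 and 92.2 CPM (log2 fold change 3.57, adjusted p = 4.41e-06), and GRE2, a methylglyoxal reductase, by 1.54 ± 0.30. The butanediol dehydrogenase gene BDH1 fell by 1.51 and ADH6 by 1.36, and both falls held. A further list held the markers of oxidative stress that the study chose on these samples, so that its direction is not independent evidence. All 7 of its members rose, with a median of 2.79.

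Hydrophilins and small stress proteins of the plasma membrane were among the largest rises. Hydrophilins such as Sip18 and Gre1 accumulate in yeast under drying and osmotic stress, and Hsp12 associates with membranes. Of 11 such genes 10 rose, 8 of them held, and 0 fell, with a median log2 fold change of 2.82. SIP18 was at 25.4, 23.6 and 34.4 CPM in wild type and 2618, 2604 and 2639 CPM in ZCZ01. The ZCZ01 libraries were nearly equal and lay far above the highest wild type library, with a log2 fold change of 6.56 ± 0.19 (adjusted p = 6.76e-11). YMR175W-A, an open reading frame that overlaps SIP18 on the same strand, gave 6.75 and cannot be separated from it. GRE1 rose from 31.3, 4.71 and 6.31 to 2409, 695 and 669 CPM (log2 fold change 6.54, adjusted p = 6.67e-09), and experiment 1 was the highest in both strains. HSP12 was at 1482, 859 and 714 CPM in wild type and 9453, 7534 and 7144 CPM in ZCZ01 (log2 fold change 3.04, adjusted p = 2.19e-09). YRO2, a membrane protein of the Hsp30 family, rose by 4.94 ± 0.26, HSP30 by 2.61 and DDR2 by 2.11. The groups did not overlap for any gene named so far in this list. NOP6, a ribosome biogenesis factor with a hydrophilin-like sequence, did not pass (log2 fold change 0.38, adjusted p = 0.055).

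Msn2 and Msn4 activate many stress genes through the stress response element AGGGG. It occurred in 34.1% of all promoters of 500 bases on either strand, in 43.6% of the 548 promoters read for genes at least 2-fold higher and in 33.2% of the 576 for genes at least 2-fold lower. Among hydrophilins 6 promoters held it and 5 did not. The 6 with it had a median log2 fold change of 2.85 and the 5 without it, among them GRE1 and YRO2, 2.61. Outside this list, the chaperone gene SSA3 had no copy either. The copies of SIP18 and the copy of TKL2 are printed from chrXIII:610618-610661 and chrII:476500-476524 on the coding strand, to show a promoter with 2 copies and one with 1. Capitals mark AGGGG or its complement CCCCT.
SIP18: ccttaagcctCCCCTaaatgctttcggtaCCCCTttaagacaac
TKL2: attggcttgtCCCCTcttactgtag

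Of 28 chaperone and cochaperone genes 13 were higher (46.4%), 9 of them held, and 8 lower (28.6%), 4 of them held. The inducible cytosolic Hsp70 gene SSA3 was at 53.8, 23.6 and 24.6 CPM in wild type and 1670.1, 1009 and 1011 CPM in ZCZ01 (log2 fold change 5.21, adjusted p = 1.66e-09). SSA4, another inducible Hsp70, rose from 144, 164 and 148 to 1457, 1259.7 and 1304 CPM (log2 fold change 3.14, adjusted p = 2.06e-09). The constitutive Hsp70 gene SSA2 fell by 1.04 ± 0.17 and the constitutive Hsp90 gene HSC82 by 1.10 ± 0.16, while its heat-inducible paralogue HSP82 rose by 0.77 ± 0.13. The mitochondrial chaperonin gene HSP60 was at 1216, 791 and 793 CPM in wild type and 494, 363 and 338 CPM in ZCZ01 (log2 fold change -1.22, adjusted p = 1.98e-05). HSP42 and BTN2, for a small heat shock protein and a sorting factor of aggregated proteins, rose by 2.05 and 2.34. HSP104, the disaggregase, rose by 1.22 (adjusted p = 0.00263), a call lost without experiment 2 or 3 and with both summed. Its levels were 818, 575 and 617 CPM in wild type and 1001, 1894 and 1918 CPM in ZCZ01, so that experiment 1 rose least.

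Genes of stationary phase also rose, 7 of 13 tested with all 7 held and 0 lower, at a median of 1.59. HSP26, a small heat shock protein, was at 167, 206 and 215 CPM in wild type and 2703, 4625 and 4642 CPM in ZCZ01 (log2 fold change 4.31, adjusted p = 1.44e-08). YGP1, a secreted glycoprotein of starved cells, rose from 139, 186 and 173 to 1099.8, 1460.2 and 1349 CPM (log2 fold change 2.97, adjusted p = 8.77e-09). SPG4, a gene required in stationary phase, rose from 11.8, 0 and 2.81 to 179, 179 and 184 CPM (log2 fold change 5.10, adjusted p = 1.8e-05), all 3 of its ZCZ01 libraries lying far above wild type. Of 7 trehalose genes 3 rose, 2 of them held, and 0 fell. The neutral trehalase gene NTH1 rose by 1.70 (adjusted p = 0.000974) and TPS1, the trehalose phosphate synthase gene, by 0.76 (adjusted p = 0.000813), while TPS2, which dephosphorylates the product, was at -0.46 (adjusted p = 0.0702). Glycogen genes went both ways, 3 of 14 up (21.4%) and 4 down (28.6%), not far from the 19.9% and 21.4% of all genes tested. Among them the glycogen synthase gene GSY1 was at -1.90, the phosphatase targeting subunit GAC1 at -3.33 and the phosphorylase gene GPH1 at 0.79, all held.

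**Figure D3:**
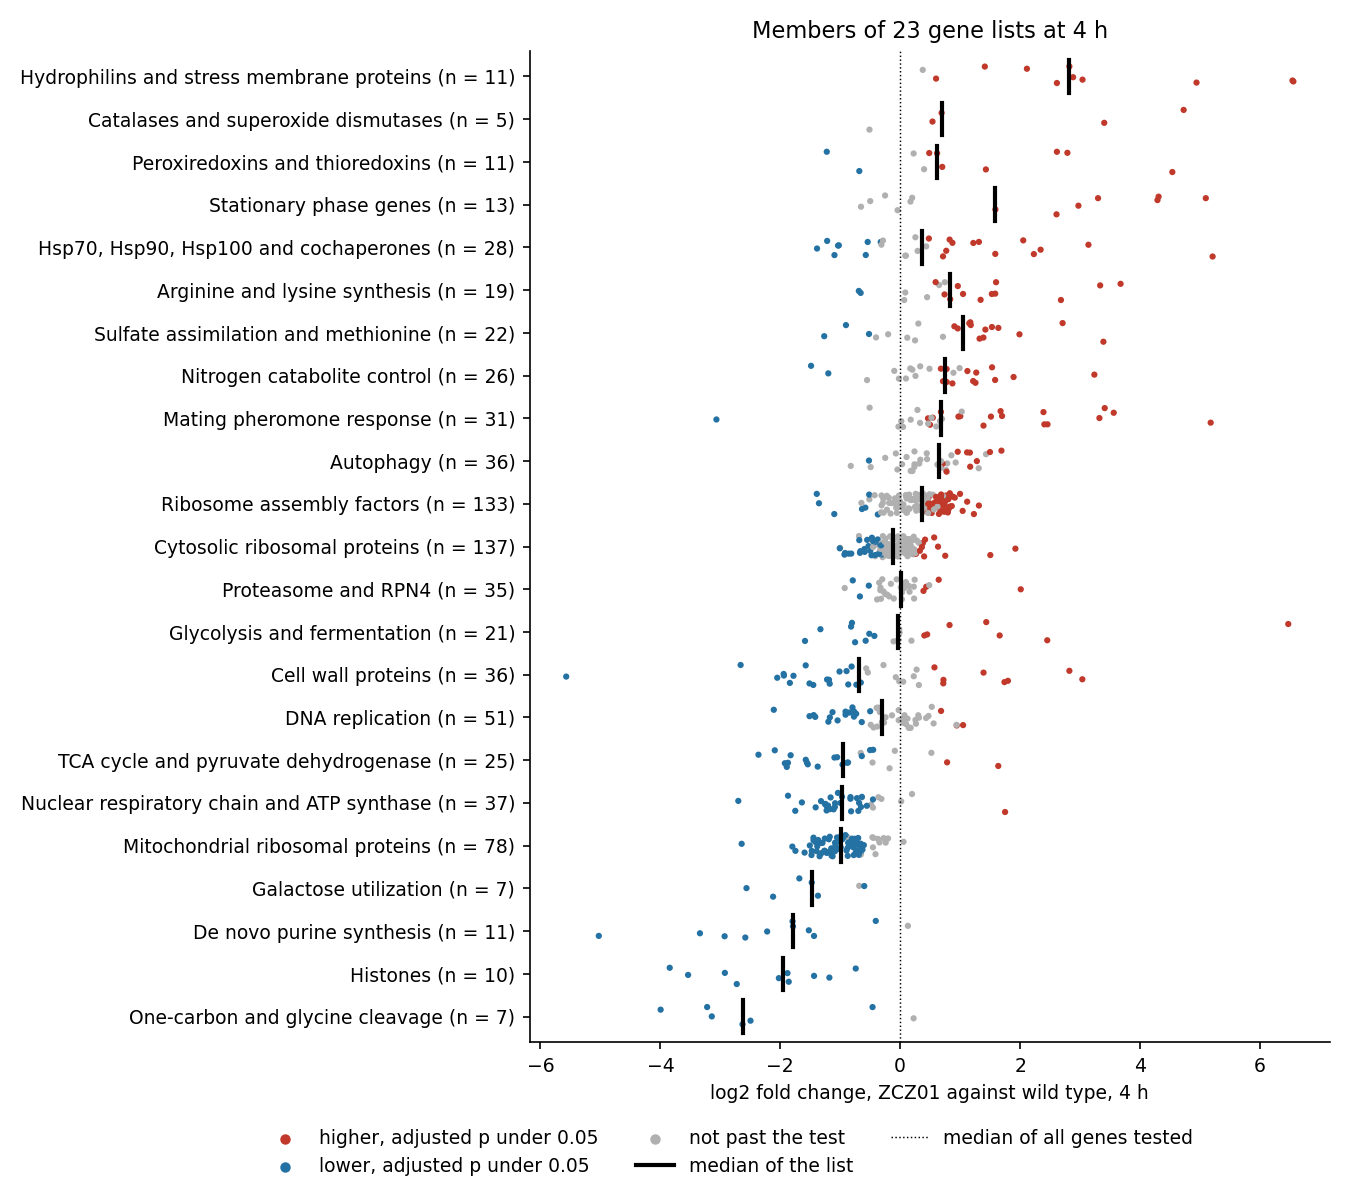
Log2 fold change of ZCZ01 over wild type at 4 h (horizontal axis) for the members of 23 gene lists (vertical axis), with 1 point for each gene coloured by whether it passed the adjusted p in either direction, and a bar at the median of each list. Hydrophilins have a median of 2.82, and the purine, one-carbon and histone lists have medians of -1.80, -2.63 and -1.95.

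The pentose phosphate pathway makes NADPH and ribose. Of its 13 genes 4 rose and 4 fell (30.8% each, against 19.9% and 21.4% of all genes), 4 and 2 of them held. TKL2, the minor transketolase, was at 8.27, 13.2 and 7.72 CPM in wild type and 589.7, 535 and 564 CPM in ZCZ01 (log2 fold change 5.89, adjusted p = 8.43e-09). The dubious open reading frame YBR116C overlaps it on the same strand, gave 5.91 and cannot be told apart from it. NQM1, the minor transaldolase, rose from 11.2, 27.3 and 20.3 to 232, 947 and 958 CPM (log2 fold change 5.07, adjusted p = 7.51e-09), less in experiment 1 than in the other 2. The minor phosphogluconate dehydrogenase gene GND2 rose by 3.81 ± 0.22 and SOL4 by 1.34 ± 0.19. The main transaldolase gene TAL1 fell from 505, 533 and 509 to 122, 211 and 184 CPM (log2 fold change -1.61, adjusted p = 6.75e-06). RPE1, the ribulose phosphate epimerase gene, fell by 2.02 ± 0.16, and GND1 by 0.96, the last not held.

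In glycolysis and fermentation 7 of 21 genes were higher, 4 of them held, and 8 lower, 6 of them held, with a median of -0.03. TDH1, the glyceraldehyde phosphate dehydrogenase isozyme of slow growth, was at 777, 904 and 946 CPM in wild type and 4937, 4641 and 4761 CPM in ZCZ01 (log2 fold change 2.45, adjusted p = 2.15e-08). TDH3, the main isozyme, fell from 17449, 15578 and 14500.0 to 11646, 10151 and 10059.7 CPM (log2 fold change -0.58, adjusted p = 3.58e-05). ENO1 rose by 1.44 ± 0.12 and ENO2 fell by 0.82 ± 0.12. PDC6, a minor pyruvate decarboxylase, had 1, 0 and 2 counts in the wild type libraries and 61, 136 and 193 in ZCZ01, and it rose (adjusted p = 1.12e-06). PFK2, a phosphofructokinase subunit, fell by 1.59 ± 0.17. Each of these calls held. Of 11 glycerol genes 2 rose (18.2%), both held, and 3 fell (27.3%), 1 of them held, against 19.9% and 21.4% of all genes tested. The 2 that rose code for dihydroxyacetone kinases. DAK2 had 0 counts in all wild type libraries and 14.9, 12.2 and 13.3 CPM in ZCZ01, and DAK1 rose by 1.34 (adjusted p = 2.07e-05).

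Genes for the use of ethanol and acetate were raised and lowered. Of 20 genes of gluconeogenesis, the glyoxylate cycle and ethanol use 8 rose, 5 of them held, and 5 fell, 4 of them held. The glyoxylate genes ICL1 and MLS1, for isocitrate lyase and malate synthase, rose by 2.48 and 2.89. CIT2, the peroxisomal citrate synthase, was at 54.4, 18.9 and 27.4 CPM in wild type and 287, 277 and 266 CPM in ZCZ01 (log2 fold change 3.08, adjusted p = 1.14e-06). ADH2, the alcohol dehydrogenase that oxidizes ethanol, rose from 65.01, 10.4 and 7.72 to 256, 169 and 185 CPM (log2 fold change 3.15, adjusted p = 0.000352), with experiment 1 highest in both strains. CAT8, the activator of many of these genes, fell by 1.60 ± 0.25 and the lactate transporter gene JEN1 by 1.45 ± 0.18. PYC1 and PYC2, paralogous pyruvate carboxylase genes, went opposite ways, with log2 fold changes of 1.65 and -1.14, both held.

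The tricarboxylic acid cycle and the respiratory chain were lower in most members. Of 25 genes of the cycle and of pyruvate dehydrogenase 18 fell, 13 of them held, and 2 rose, with a median of -0.96. ACO1, the aconitase gene, was at 1606, 1096 and 1215 CPM in wild type and 349, 285 and 278 CPM in ZCZ01 (log2 fold change -2.09, adjusted p = 1.4e-08). SDH1, a succinate dehydrogenase subunit, fell from 217, 215 and 201 to 30.9, 46.6 and 46.6 CPM (log2 fold change -2.36, adjusted p = 6.06e-06). IDH1 and IDH2, both subunits of the NAD-dependent isocitrate dehydrogenase, fell by 1.83 and 1.89. The groups did not overlap for any of these 4. IDP2, a cytosolic isocitrate dehydrogenase, was among the members that rose (log2 fold change 1.64, adjusted p = 0.000569).

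Of 37 nuclear genes of the respiratory chain and ATP synthase 29 fell, 19 of them held, and 1 rose, at a median of -0.97. CYC1, the main cytochrome c gene, was at 233, 419.6 and 373 CPM in wild type and 57.4, 49.96 and 45.6 CPM in ZCZ01 (log2 fold change -2.70, adjusted p = 1.66e-06). ATP20, a subunit of ATP synthase, fell from 748, 767 and 785 to 197, 230.2 and 203 CPM (log2 fold change -1.87, adjusted p = 5.42e-08). QCR2 and QCR8 of complex III fell by 1.75 and 1.41. NDE2, an external NADH dehydrogenase, was the member that rose (log2 fold change 1.75, adjusted p = 0.00346), and its paralogue NDE1 fell by 1.00. Mitochondrial ribosomal protein genes moved alike, with 66 of 78 lower, 41 of them held, 0 higher and a median of -0.99. Among them MRPL39 fell from 235, 211 and 198 to 49.7, 27.00 and 28.2 CPM (log2 fold change -2.64, adjusted p = 1.91e-07) and MNP1 by 1.80 ± 0.15. MPC3, a subunit of the mitochondrial pyruvate carrier, was at 162, 157 and 139 CPM in wild type and 19.9, 20.3 and 14.3 CPM in ZCZ01 (log2 fold change -3.08, adjusted p = 9.38e-08). RGI2, a gene induced on respiration, fell from 21.3, 15.1 and 11.9 to 0, 0.675 and 0.512 CPM, and RGI1 fell by 2.07 ± 0.19.

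All histone genes were lower. Histone mRNAs are made in S phase, and in yeast they come as divergent pairs for H2A with H2B and for H3 with H4. Of 10 genes all 10 fell and all 10 calls held, with a median log2 fold change of -1.95. HTA2, for H2A, was at 2559, 1279 and 1249 CPM in wild type and 181, 85.1 and 89.1 CPM in ZCZ01 (log2 fold change -3.84, adjusted p = 4.42e-10). HTB2, its divergent partner for H2B, fell from 950.3, 553 and 575 to 94.4, 49.96 and 39.96 CPM (log2 fold change -3.54, adjusted p = 1.72e-09). The other H2A gene, HTA1, was at 2679, 751 and 765 CPM in wild type and 1223, 333 and 323 CPM in ZCZ01. Experiment 1 was highest in both strains, so the groups overlapped, but each experiment gave a fall and the log2 fold change was -1.18 ± 0.13. HHF2 and HHF1, for H4, fell by 2.92 and 1.44, and HHT2 and HHT1, for H3, by 1.88 and 0.74. HHO1, the linker histone gene, fell by 2.73 ± 0.17 and HTZ1, the variant H2A.Z, by 1.86 ± 0.17.

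Genes of the entry into the cell cycle fell as well. At Start, the factors SBF and MBF switch on G1 cyclins and genes for DNA synthesis, and MBF binds the MluI cell cycle box ACGCGT. Of 16 G1 cyclin and Start genes 8 fell, 7 of them held, and 1 rose. PCL1, a G1 cyclin of the kinase Pho85, was at 167, 122 and 113 CPM in wild type and 18.8, 8.10 and 11.3 CPM in ZCZ01 (log2 fold change -3.40, adjusted p = 2.47e-08). CLN2, a G1 cyclin, fell from 65.6, 152 and 123 to 14.9, 19.6 and 22.5 CPM (log2 fold change -2.52, adjusted p = 1.79e-06), and CLN1 by 1.39 ± 0.21. NRM1, YOX1, TOS4 and YHP1, repressors or targets at this stage, fell by 3.08, 2.71, 2.43 and 2.04. BCK2, an activator of Start that acts apart from CLN3, was the member that rose (log2 fold change 1.75, adjusted p = 0.000103). A list for the passage from G1 to S was taken from the study, which named its genes as repressed at 2 h in this series. All 6 were lower at 2 h here too, which is not independent evidence. At 4 h PCL1, CDC21, CLN2 and TOS4 fell, while SWI4 (log2 fold change -0.34, adjusted p = 0.406) and CLB5 (log2 fold change -0.17, adjusted p = 0.563) did not pass.

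ACGCGT was found in 5.43% of all promoters of 500 bases on either strand, in 9.38% of those of genes at least 2-fold lower and in 3.47% of those of genes at least 2-fold higher. CDC21, the thymidylate synthase, and POL1, the catalytic subunit of DNA polymerase alpha, are printed from chrXV:467695-467757 and chrXIV:429869-429929 on the coding strand as members with 2 copies each that fell. Capitals mark ACGCGT, which reads the same on both strands.
CDC21: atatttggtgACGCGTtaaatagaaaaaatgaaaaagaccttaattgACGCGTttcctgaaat
POL1: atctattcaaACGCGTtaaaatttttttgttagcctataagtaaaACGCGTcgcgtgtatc

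CDC21 was at 49.6, 122 and 88.4 CPM in wild type and 6.07, 16.9 and 15.9 CPM in ZCZ01 (log2 fold change -2.74, adjusted p = 1.74e-05), and POL1 fell from 180.2, 132 and 136 to 57.4, 48.6 and 50.2 CPM (log2 fold change -1.51, adjusted p = 8.42e-05). RNR1, the large subunit of ribonucleotide reductase, was at 1014, 241 and 221 CPM in wild type and 138, 31.7 and 31.8 CPM in ZCZ01 (log2 fold change -2.86, adjusted p = 1.62e-07). Of 12 ribonucleotide reductase and dNTP supply genes 4 fell (33.3%), 2 of them held, and 2 rose (16.7%), both held. Of all genes tested 21.4% fell and 19.9% rose. The 2 that rose were HUG1 and RNR3, genes induced by DNA damage or stalled replication, by 3.24 ± 0.58 and 1.57 ± 0.35. HUG1 rose from 1.77, 6.60 and 1.40 to 31.5, 28.4 and 24.1 CPM. Of 51 DNA replication genes 18 fell, 7 of them held, and 3 rose, 1 of them held. POL30, which codes for PCNA, fell from 300.2, 205 and 209.8 to 66.3, 54.7 and 44.6 CPM (log2 fold change -2.11, adjusted p = 1.55e-07). RFA2 and RFA3, subunits of replication protein A, fell by 1.42 and 1.44. TAH11, the loader of the MCM helicase, was the held member that rose (log2 fold change 1.05, adjusted p = 0.00153). Replication genes with ACGCGT had a median of -0.39 over 25 members, 12 of them lower, and those without it -0.03 over 26, with 6 lower.

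Later cell cycle genes were lower in part. Of 29 mitosis and cell separation genes 9 fell (31.0%), 3 of them held, and 4 rose (13.8%), 1 of them held. Of 16 septin and morphogenesis checkpoint genes 7 fell (43.8%), 5 of them held, and 1 rose (6.25%). Of all genes tested 21.4% fell and 19.9% rose. CLB1, a mitotic cyclin, was at 62.1, 59.4 and 80.7 CPM in wild type and 8.83, 12.2 and 9.22 CPM in ZCZ01 (log2 fold change -2.75, adjusted p = 1.67e-06). Of 8 B-type cyclin and inhibitor genes 3 fell, 1 of them held. CLB2 was near the limit of counting, with 7.09, 0 and 9.12 CPM in wild type and 1.10, 1.35 and 1.54 in ZCZ01 (adjusted p = 0.0911). SIC1, the inhibitor of B-type cyclin kinases, had a log2 fold change of -0.20 (adjusted p = 0.295). The polo kinase gene CDC5 fell by 2.00 ± 0.18 and CHS2, the chitin synthase of the septum, by 1.97 ± 0.28. GIN4, HSL1 and KCC4, kinases at the septin ring, fell by 2.05, 1.27 and 1.60, and SWE1, the kinase that delays mitosis, fell from 46.1, 38.7 and 52.6 to 7.18, 14.9 and 14.3 CPM (log2 fold change -1.95, adjusted p = 0.000228). Among genes of cell separation, DSE4 rose by 0.77 (adjusted p = 0.00303) and the chitinase gene CTS1 by 0.60, and the second call was lost without experiment 2.

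Cell wall genes fell more often than they rose. Glucan-modifying enzymes and anchored mannoproteins build the wall as the bud grows. Of 36 genes 19 fell, 15 of them held, and 8 rose, 4 of them held, with a median of -0.69. TOS6, an anchored wall protein, was at 169.6, 183 and 152 CPM in wild type and 2.21, 4.05 and 4.10 CPM in ZCZ01 (log2 fold change -5.57, adjusted p = 1.8e-08), the largest fall of all genes tested. CWP1, a mannoprotein of the birth scar, fell from 185, 189.5 and 195 to 25.9, 33.1 and 31.3 CPM (log2 fold change -2.66, adjusted p = 2.1e-07). GAS1, a glucanosyltransferase, was at 1671, 994 and 1017 CPM in wild type and 481, 284 and 269 CPM in ZCZ01 (log2 fold change -1.84, adjusted p = 3.43e-08), and CRH1 and FKS1, for a chitin transglycosylase and the main glucan synthase, fell by 1.78 and 1.45. GSC2, the alternative glucan synthase of stress and sporulation, rose by 1.39 ± 0.13. PIR3 and SPI1 rose from 3.55, 6.60 and 7.72 to 22.6, 70.9 and 61.99 CPM and from 74.5, 79.2 and 43.5 to 463, 439 and 461 CPM. CPP2, a palmitoylated membrane protein located toward the daughter cell, fell by 3.30 ± 0.33.

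Ion transport is the process with which Ppz1 is most often linked. Of 18 potassium, sodium and proton transport genes 5 rose (27.8%), 3 of them held, and 2 fell (11.1%), 0 of them held, against 19.9% and 21.4% of all genes. TRK1, the main potassium importer, was at 71.5, 103 and 100.3 CPM in wild type and 209, 192 and 223 CPM in ZCZ01 (log2 fold change 1.2, adjusted p = 4.59e-05). PMA1, the proton pump of the plasma membrane, rose from 194, 87.7 and 96.1 to 319, 234 and 237 CPM (log2 fold change 1.13, adjusted p = 0.00105), and PMA2, its minor isoform, from 1.77, 0 and 1.40 to 35.9, 14.2 and 10.2 CPM. HAL5, a kinase that activates Trk1, rose by 0.90 (adjusted p = 0.00585), lost without experiment 2. ENA1, the sodium pump, had few counts, 6, 34 and 59 in wild type and 2, 36 and 49 in ZCZ01, and its probe is shared with its copies. Of 12 calcineurin genes 2 rose (16.7%), 0 of them held, and 1 fell (8.33%), which held. The vacuolar calcium exchanger gene VCX1 fell by 0.86 (adjusted p = 0.00126), and the calcineurin subunit genes CNA1, CMP2 and CNB1 lay between -0.10 and 0.04 on the log2 scale and did not pass.

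Cytosolic ribosomal protein genes changed little at 4 h. Of 137 genes 11 rose (8.03%) and 24 fell (17.5%), against 19.9% and 21.4% of all genes tested, and the median was -0.11. Only 2 rises and 5 falls held, and leaving out experiment 1 gave 44 higher and 58 lower, without experiment 2 it was 2 and 6 and without experiment 3 also 2 and 6. RPS14B was at 139, 125 and 141 CPM in wild type and 668, 435 and 456 CPM in ZCZ01 (log2 fold change 1.92, adjusted p = 6.06e-07). RPL7B rose from 79.2, 228 and 175 to 294, 524 and 475 CPM (log2 fold change 1.5, adjusted p = 1.02e-05), with the caution that part of its probe recurs in RPL7A. RPS21A, on the other hand, fell by 1.01 ± 0.16 and RPL40B by 0.93 ± 0.14, both held.

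Ribosome assembly factors leaned upward by a small amount. Of 133 genes 45 rose (33.8%) and 7 fell (5.26%), against 19.9% and 21.4% of all genes tested. The median log2 fold change was 0.36. Only 9 of the rises and 3 of the falls held. Held rises were thus no more frequent than over all genes tested, at 8.04%, nor were held falls, at 9.92%. Rises numbered 74 without experiment 1, 19 without experiment 2 and 15 without experiment 3. ESF1, a factor of the small subunit, was at 221, 290.4 and 299.6 CPM in wild type and 688, 639 and 671 CPM in ZCZ01 (log2 fold change 1.31, adjusted p = 5.98e-05). NOP8 and FAF1, of the large and the small subunit, rose by 1.12 and 1.23, both held. Among the falls TIF6, which keeps the subunits apart, was at 145, 55.6 and 60.3 CPM in wild type and 41.4, 30.4 and 25.1 CPM in ZCZ01 (log2 fold change -1.35, adjusted p = 0.00832), and the helicase genes DBP2 and HAS1 fell by 1.39 and 1.10. The PAC element GATGAG was present in 119 of the 133 promoters, against 28.3% of all promoters of 500 bases on either strand. Members with it had a median of 0.35 and the 14 without it 0.44. The copy of NOP8 is shown with GATGAG in capitals, from chrXV:52989-53014 on the coding strand, as the form found in most of these promoters.
NOP8: agaattgagcGATGAGctaaaatgtc

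Of 37 translation factors 11 fell, 3 of them held, and 2 rose, 0 of them held. TEF4, an elongation factor 1B subunit, was at 1709, 884 and 853 CPM in wild type and 738, 419 and 429 CPM in ZCZ01 (log2 fold change -1.09, adjusted p = 0.00478), and TIF5 and TIF11, for initiation factors, fell by 0.75 and 0.65. Proteasome genes stayed near the centre, with 4 of 35 higher, 1 of them held, 3 lower, 1 of them held, and a median of 0.01. RPN4, the activator of proteasome genes, rose nevertheless from 92.8, 67.9 and 72.3 to 296, 332 and 311 CPM (log2 fold change 2.01, adjusted p = 4.39e-07), and its groups did not overlap. PRE4 and PRE7, subunits of the core particle, fell by 0.79 and 0.67, the second not held. Of 36 autophagy genes 9 rose (25%, against 19.9% of all genes), 4 of them held, and 1 fell. ATG8, which marks the autophagosome membrane, was at 92.8, 132 and 125 CPM in wild type and 257, 346 and 387 CPM in ZCZ01 (log2 fold change 1.5, adjusted p = 8.92e-06), and ATG11 and ATG13 rose by 1.69 and 1.28.

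Arginine synthesis was higher. Gcn4, the activator of amino acid genes, binds TGACTCA, which contains the TGACTC of Bas1 and was present in 4.01% of all promoters of 500 bases on either strand. The copy of ARG1 is printed from chrXV:218856-218882 on the coding strand with TGACTCA in capitals, as a contrast to HIS4, whose promoter holds the motif too and whose level fell.
ARG1: gattttttagTGACTCAtgtcgcattt

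Of 19 arginine and lysine genes 12 rose, 9 of them held, and 2 fell, with a median of 0.83. The 12 members with TGACTCA had a median of 1.44, with 10 higher and 0 lower, and the 7 without it 0.45, with 2 higher and 2 lower. ARG1, for argininosuccinate synthetase, was at 10.05, 30.2 and 16.8 CPM in wild type and 172, 184 and 183 CPM in ZCZ01 (log2 fold change 3.34, adjusted p = 4.55e-07). CPA1, a subunit of carbamoyl phosphate synthetase, rose from 49.6, 59.4 and 43.5 to 544, 689.9 and 723 CPM (log2 fold change 3.68, adjusted p = 3.32e-08), and its probe overlaps the upstream frame YOR302W on the same strand. ARG3, ARG4, ARG5,6 and ARG7 rose by 2.68, 1.34, 1.60 and 1.59. LYS9 and LYS12 fell by 0.69 and 0.66, and neither fall held. GCN4 rose from 1239, 1289.8 and 1238 to 1871, 1821 and 1824 CPM (log2 fold change 0.55, adjusted p = 0.00144), a call that was not held.

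The other amino acid genes showed no common direction, with 12 of 47 higher and 12 lower, 4 and 6 of them held. Each was 25.5%, against 19.9% higher and 21.4% lower over all genes tested. SER3, of serine synthesis, was at 23.05, 49.03 and 42.1 CPM in wild type and 362, 444 and 479 CPM in ZCZ01 (log2 fold change 3.54, adjusted p = 1.17e-07) and LEU1, of leucine synthesis, rose from 169.6, 203 and 192 to 703, 849 and 818 CPM (log2 fold change 2.07, adjusted p = 1.5e-07). The aromatic aminotransferase gene ARO9 fell from 238, 186 and 209.8 to 12.7, 10.1 and 15.4 CPM (log2 fold change -4.04, adjusted p = 2.06e-09) and the decarboxylase gene ARO10 by 2.76 ± 0.22, both of which act in the breakdown of aromatic amino acids. In this list the 22 members with TGACTCA had a median of 0.01 and the 25 without it -0.13.

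Sulfate assimilation and nitrogen catabolism leaned upward. Of 22 sulfate and methionine genes 13 rose, 6 of them held, and 3 fell, 1 of them held, with a median of 1.06, in strains that both carry the MET17 deletion. MET10, a sulfite reductase subunit, was at 21.3, 23.6 and 19.6 CPM in wild type and 61.3, 93.2 and 109 CPM in ZCZ01 (log2 fold change 1.99, adjusted p = 0.000121). MET1 and MET16 rose by 1.64 and 1.42, and STR3, a cystathionine lyase, by 2.71. SAM1, an S-adenosylmethionine synthetase, fell by 1.27 (adjusted p = 0.00328), while its paralogue SAM2 rose by 1.17 (adjusted p = 0.0177), the rise not held. Of 26 nitrogen genes 13 rose, 5 of them held, and 2 fell, both held. PUT1, the proline oxidase, was at 20.7, 35.8 and 44.9 CPM in wild type and 239, 368 and 334 CPM in ZCZ01 (log2 fold change 3.24, adjusted p = 1.4e-08), and PUT2, the next enzyme, fell by 1.2 (adjusted p = 0.000946). The 4-aminobutyrate genes UGA1 and UGA2 rose by 1.27 and 1.89. GLN1, the glutamine synthetase gene, fell from 523, 382 and 413 to 129, 165 and 176 CPM (log2 fold change -1.49, adjusted p = 0.000152). Among permeases GAP1, the general amino acid permease, rose by 1.52 ± 0.16 and GNP1, for glutamine, fell by 1.49 ± 0.21.

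The aldehyde dehydrogenase gene ALD3, which acts in the route from spermine to beta-alanine, was at 40.2, 35.8 and 33.7 CPM in wild type and 1484, 1725 and 1713 CPM in ZCZ01 (log2 fold change 5.48, adjusted p = 6.11e-10). Of 19 genes of that list 7 rose, 5 of them held, and 0 fell, among them the polyamine exporter gene TPO2, by 2.75 ± 0.26. NCE103, the carbonic anhydrase gene, rose from 157, 91.5 and 104 to 732, 1058 and 1120.0 CPM (log2 fold change 3.04, adjusted p = 2.2e-06), with experiment 1 the lowest of the ZCZ01 libraries and no overlap between groups.

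Metal and phosphate genes moved in both directions. The high-affinity iron uptake genes FET3 and FTR1, an oxidase and its permease, fell by 2.52 ± 0.13 and 1.81 ± 0.19, FET3 from 347, 294 and 266 to 57.4, 54.01 and 46.1 CPM. The siderophore transporter gene SIT1 fell by 2.88 ± 0.24. HMX1, the heme oxygenase, was at 28.4, 13.2 and 12.6 CPM in wild type and 153, 97.9 and 100.4 CPM in ZCZ01 (log2 fold change 2.72, adjusted p = 1.49e-07), and the reductase gene FRE1 rose by 1.69 ± 0.23. In all 7 of 24 iron genes fell (29.2%) and 6 rose, 5 and 2 of them held. Of all genes tested 21.4% fell and 19.9% rose, so neither count was far from the background. Held falls were 9.92% and held rises 8.04% of all genes tested. Of 21 phosphate genes 8 fell (38.1%), 5 of them held, and 2 rose (9.52%). SPL2, a regulator of phosphate uptake, fell from 45.5, 105 and 95.4 to 17.1, 5.40 and 6.15 CPM (log2 fold change -3.01, adjusted p = 8.81e-05) and VTC4, a polyphosphate polymerase, by 1.43 ± 0.20. PHO5 and PHM8, both phosphatases, rose by 1.39 and 3.62.

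Mating genes rose in a culture of a single mating type. BY4741 is MATa and makes a-factor, and pheromone genes are switched on by Ste12. Of 31 genes 17 rose, 11 of them held, and 1 fell. MFA1, an a-factor gene, was at 946, 1134 and 1095 CPM in wild type and 6167, 5239 and 5398 CPM in ZCZ01 (log2 fold change 2.41, adjusted p = 1.88e-07). AGA1, an anchor of the a-agglutinin, rose from 30.1, 23.6 and 21.8 to 321, 282 and 289 CPM (log2 fold change 3.56, adjusted p = 3.43e-08), and FUS1 and FUS2, of cell fusion, by 1.67 and 2.46. STE3, the receptor for a-factor that is expressed in MATalpha cells and whose probe overlaps YKL177W on the opposite strand, had 2.36, 1.89 and 0 CPM in wild type and 26.5, 6.08 and 12.3 in ZCZ01 (log2 fold change 3.41, adjusted p = 0.00121). HO, the mating type endonuclease gene, which is transcribed in late G1, was at 217, 134 and 150.2 CPM in wild type and 23.7, 18.2 and 17.4 CPM in ZCZ01 (log2 fold change -3.07, adjusted p = 4.6e-07) and was the member that fell.

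The ergosterol, peroxisome and RNA polymerase lists had shares of calls near or below those of all genes tested, which were 19.9% higher and 21.4% lower. Of 27 ergosterol genes 6 fell (22.2%), 1 of them held, and 1 rose (3.7%). The held member was ERG4, the last reductase of the pathway, with a log2 fold change of -1.28 ± 0.14 (adjusted p = 8.53e-06). Of 32 peroxisome and fatty acid oxidation genes 6 rose (18.8%), 4 of them held, and 4 fell (12.5%), 0 of them held. POT1, the thiolase of peroxisomal oxidation, was at 9.46, 1.89 and 4.21 CPM in wild type and 34.8, 28.4 and 26.6 CPM in ZCZ01 (log2 fold change 2.49, adjusted p = 0.0051), and YAT2, a carnitine acetyltransferase, rose by 2.33 ± 0.31. Of 22 genes of RNA polymerases I and III 2 rose (9.09%) and 4 fell (18.2%), of which only the fall of RPC11 held (log2 fold change -1.17, adjusted p = 0.00483).

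The 4 h effect was set against the 2 h effect of the same strains. At an adjusted p under 0.05 the effect at 4 h lay above that at 2 h for 388 genes (6.86%) and below it for 389 (6.88%). These counts rested on having experiments 2 and 3 as separate replicates, because they were 12 and 54 without experiment 2, 7 and 27 without experiment 3 and 10 and 43 with both summed, against 1005 and 963 without experiment 1. Scaling by total counts alone gave 282 above and 439 below. The account that follows therefore keeps to the 5 genes above (0.0884%) and 26 below (0.46%) that passed in all 5 fits.

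Purine and one-carbon genes made up 6 of the 26 genes whose effect was lower at 4 h. For ADE17 the log2 fold change was -1.58 at 2 h and -5.03 at 4 h, a difference of -3.44 ± 0.30 (adjusted p = 0.000142). SHM2 went from -1.81 to -4.00, GCV2 from -1.03 to -3.22, GCV1 from -0.87 to -3.14, ADE1 from -0.90 to -3.34 and ADE2 from -0.30 to -2.22. HIS4 had an effect of 0.16 at 2 h and -1.97 at 4 h (adjusted p of the difference 0.000157). In all 7 genes the value at 2 h was nearer to 0.

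Over the 36 genes of the cell wall list the median log2 fold change was 0.22 at 2 h and -0.69 at 4 h, and 5 of them were among the held differences. SED1, a major wall protein of stationary phase, had 1.99 at 2 h and -0.73 at 4 h, and PIR1 1.03 and -1.19. CRH1 had 0.08 and -1.78, CWP1 -0.36 and -2.66 and TOS6 -2.20 and -5.57. Outside the list, SIM1, of the SUN family, had 0.86 and -2.85. SRL1, a mannoprotein, had 0.29 and -1.53, and the dubious frame YOR248W overlaps it on the same strand with like values. PRY2, a secreted sterol-binding protein, had -0.08 and -2.00, CPP2 0.33 and -3.30 and MLC1, a myosin light chain of cytokinesis, 0.35 and -1.54.

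GAL1 was the galactose gene with a held difference, with -0.13 at 2 h and -1.37 at 4 h (adjusted p of the difference 0.000157). PFK1, a phosphofructokinase subunit, had 1.40 and -0.52, and GPD1, the glycerol phosphate dehydrogenase of osmotic stress, 1.83 and -0.88, with opposite signs at both times. GLN1 had 0.70 and -1.49, HHO1 -0.82 and -2.73, OPT2, of the oligopeptide transporter family, 0.85 and -1.46 and YRA1, an mRNA export factor, 0.61 and -1.37. YER053C-A, an uncharacterized protein of the endoplasmic reticulum, was the remaining gene, with 4.88 at 2 h and 0.74 at 4 h.

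The 5 held differences upward were SIP18, with 4.00 at 2 h and 6.56 at 4 h, FRE7, a copper-regulated reductase, with 0.50 and 3.02, MIN10, with -1.10 and 2.06, MMP1, the S-methylmethionine permease, with -2.83 and -0.20, and YMR230W-A, with -1.63 and 0.94. FRE7 rose at 4 h from 15.4, 13.2 and 11.9 to 105, 112 and 115 CPM. MMP1 had 59.1, 13.2 and 30.9 CPM in wild type and 40.9, 28.4 and 18.4 in ZCZ01 at 4 h, and the groups overlapped. YMR230W-A overlaps PEP5 on the same strand. The genes of this paragraph and the previous 3 that no list names were taken because they passed in all 5 fits.

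In some lists the median moved between both times while few or no members had a held difference. Ribosomal protein genes had a median of -0.56 at 2 h, with 98 lower and 3 higher, and -0.11 at 4 h, and 50 of 137 passed as above 2 h with 0 held. Ribosome assembly factors had a median of -0.25 at 2 h and 0.36 at 4 h, with 43 above and 0 held. Proteasome genes had a median of 0.66 at 2 h, with 29 of 35 higher, and 0.01 at 4 h, with 15 below and 0 held. Glycolysis genes had 0.81 at 2 h and -0.03 at 4 h, with 11 below, of which PFK1 held. Hydrophilins had a median of 3.12 at 2 h and 2.82 at 4 h, and the chosen oxidative stress markers 3.09 and 2.79.

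**Figure D4:**
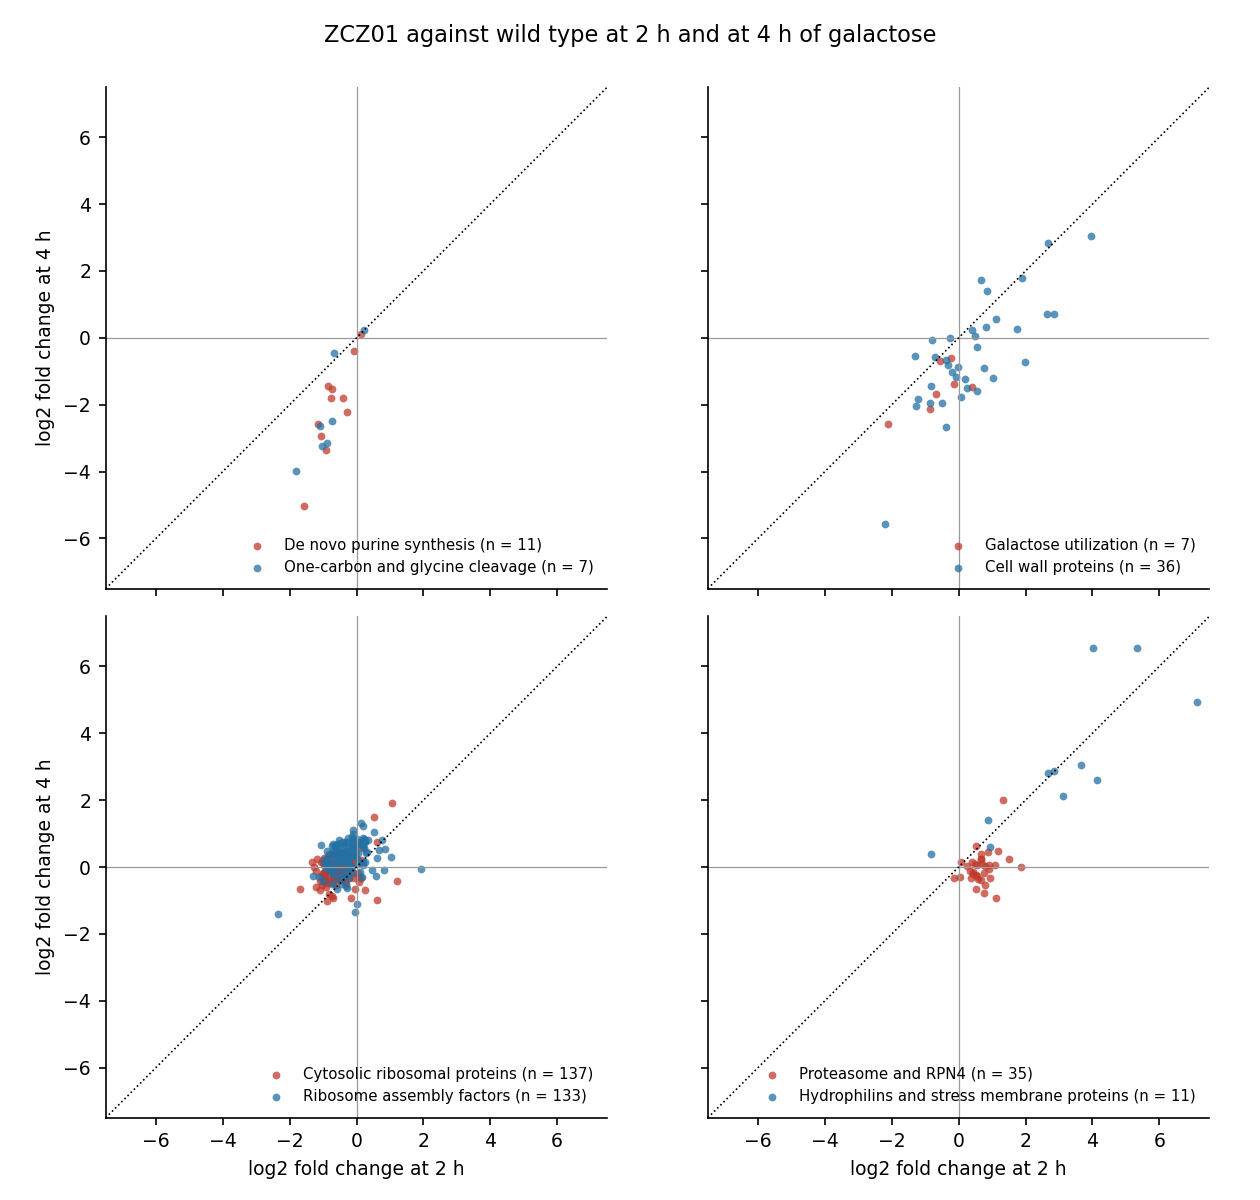
Log2 fold change of ZCZ01 over wild type at 2 h (horizontal axis) and at 4 h (vertical axis) for single genes, in 4 panels by gene list, with a diagonal of equal effects. Most purine and one-carbon genes lie below the diagonal, with ADE17 at -1.58 and -5.03, and SIP18 lies above it at 4.00 and 6.56.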

How the data were processed

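RNA of BY4741 and ZCZ01 cells was taken 0.5, 2 and 4 h after galactose in 3 experiments and made into QuantSeq 3′ libraries. The authors deposited 1 table of raw read counts per experiment, made by alignment with Bowtie2 (per the labels, version not given in the sources used here). Genome build, strand setting and the handling of reads with several matches are not given in the sources used here. The 6692 probes were matched to the RefSeq R64 annotation by name, and 5989 matched, of which 5981 had the ends of the gene with 100 nt added downstream. Unmatched probes held 1.417% to 2.239% of the counts. No column of another sample was found.

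Counts were scaled by TMM and tested with edgeR 4.0.16 (R 4.3.3) by the quasi-likelihood test over 18 libraries, with a block for each pair of strains at 1 time in 1 experiment and a ZCZ01 effect at each time, and p-values were adjusted over 5658 genes by the Benjamini-Hochberg method. Libraries of 1 experiment and time deviated together (correlations of deviations of 0.827, 0.608 and 0.665 at 4 h), and the pairing comes from the shared experiment number. Counts of genes needed an adjusted p under 0.05 and a fold of 2, and single genes and list members the adjusted p alone. CPM used no prior count. Scripts were tested on simulated data. A probe was called recurring where any 50-base window in its last 300 bases was found elsewhere in R64 on either strand.

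Members and lists were chosen with earlier results of these data known. Named were PPZ1, the 12 largest changes in each direction outside the lowest 0.25 of mean levels, up to 6 members of each list past the test and up to 3 against the list's direction, all members of lists of at most 12 genes, the 6 largest differences from 2 h in each direction, and genes named by the study. ARG4, CLN1, CRH1, ENO2, FKS1, FUS1, GAS1, GCN4, GLK1, GND1, GSC2, HSP104, HSP82, HXK1, MAL31, MFA1, NDE1, PYC2, SAM2, SSA2 and TDH3 fall outside that rule and were chosen after their values were seen, as were the held differences. Alternatives were DESeq2 1.42.0, voom in limma 3.58.1, other scalings and filters, no replicate block, each replicate left out, experiments 2 and 3 summed, times from the sample titles, and the fit without recurring probes, the last chosen after seeing the data, as was the count of held calls. Some single results are not reported here.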

Additional observations from a re-analysis of the deposited data

Results flagged for a closer look

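The effect of ZCZ01 on 21 genes differed between 4 h and 2 h by the test of the difference itself in edgeR, and these genes were either the farthest apart in each direction or passed at both times with opposite signs. Only 10 of them passed in all 5 fits: SIM1, CPP2, ADE17, TOS6, GPD1, GLN1, FRE7, SIP18, YMR230W-A and MMP1. Values are differences of log2 fold changes, 4 h minus 2 h, with the adjusted p.

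Downward, the difference was -3.70 for SIM1 (adjusted p = 0.00241), -3.37 for TOS6 (adjusted p = 0.00051) and -3.63 for CPP2 (adjusted p = 0.00051). For ADE17 it was -3.44 (adjusted p = 0.000142). SML1, an inhibitor of ribonucleotide reductase, differed by -4.39 (adjusted p = 0.0206), with 2.64 at 2 h and -1.74 at 4 h, and the 4 h value alone did not pass (adjusted p = 0.0998). SPO24, a small sporulation protein, differed by -3.47 (adjusted p = 0.0158).

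GPD1 differed by -2.70 (adjusted p = 0.000839) and GLN1 by -2.19 (adjusted p = 0.000962). ERG13, the HMG-CoA synthase, differed by -2.13 (adjusted p = 0.00666) and FAA1, an acyl-CoA synthetase, by -1.55 (adjusted p = 0.00697). Among proteasome core subunits the difference was -1.55 for PRE4, -1.31 for PRE5 and -1.18 for PRE7 (adjusted p = 0.00377, 0.00137 and 0.00286). It was -1.31 for DOT5 and -1.26 for LYS9 (adjusted p = 0.00545 and 0.0016).

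Upward, SIP18 differed by 2.55 (adjusted p = 0.000157), and YMR175W-A, which overlaps it on the same strand, by 2.54. FRE7 differed by 2.52 (adjusted p = 0.000839). MMP1 differed by 2.62 (adjusted p = 0.00112), YMR230W-A by 2.57 (adjusted p = 0.000839) and YOL013W-A by 2.42 (adjusted p = 0.00264).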

How the results depend on the processing

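The counts of genes at least 2-fold higher and lower at 4 h, 577 and 589, stayed within 1.5 times under the other scalings, tools and filters, with 2 exceptions, which were 340 higher over genes whose mean count was 50 or more, where fewer genes were tested, and 1 higher and 0 lower with the times of the sample titles. Leaving out each replicate gave 443 to 646 higher and 513 to 583 lower. Experiment numbers pair the samples, and with no replicate block the counts were 448 and 529, while genes above and below 2 h fell to 99 and 138. Those differences from 2 h ranged from 7 to 1005 above and from 27 to 963 below without each replicate, were 10 and 43 with experiments 2 and 3 summed, and 0 and 0 with the times of the titles. The cause was not tested.

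Of 343 named calls at 4 h, 333 of the 337 tested passed with the 4 h libraries alone, 291 with no replicate block, 325 with DESeq2, 341 with limma voom, 270 without replicate 2, 267 without replicate 3 and 280 with experiments 2 and 3 summed, and the 322 on probes with no recurring window all passed when such probes were fitted alone. No call reversed except under the times of the titles, where 0 of 343 passed and 21 changed sign, with the log2 fold change at -0.09 for CTA1, 0.25 for DOT5, 0.35 for ERG13, 0.20 for ERG6, 0.09 for FAA1, 0.18 for GAL7, 0.22 for GLN1, 0.52 for GPD1, 0.10 for HAS1, 0.19 for HTB1, 0.46 for MRPS12, -0.17 for POT1, 0.16 for PRE4, 0.06 for PRE5, 0.81 for RIP1, 0.84 for RPC10, 0.07 for SAM1, 0.71 for SDH2, 1.37 for SPO24, 0.05 for TIF11 and -0.31 for YMR230W-A. Levels under about 5 CPM rest on few counts, since libraries hold 955972 to 1874687.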

Other observations

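The genes given here have probes that recur in full elsewhere in the genome and 0 counts in both 4 h libraries of experiment 1, so that their values are those of experiments 2 and 3 only. The metallothionein gene CUP1-1, whose copies lie side by side on chromosome VIII, had 272.5 and 310.8 CPM in wild type and 1082 and 1073 CPM in ZCZ01 in these experiments. Its neighbour CUP1-2 had 300.8 and 270.8 against 1028 and 1082 CPM, and reads of both cannot be told apart. The Ty gag-pol frames YER138C and YPR137C-B were also higher, at 940.0 and 881.3 against 2429 and 2396 CPM and at 823.1 and 760.6 against 2251 and 2300 CPM.

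The frames YLR156W, YLR159W and YLR161W, which are identical and lie near the ribosomal DNA on chromosome XII, were lower in both experiments. YLR156W had 55.6 and 55.4 CPM in wild type and 2.02 and 4.10 CPM in ZCZ01. YLR161W had 62.2 and 68.1 against 2.70 and 3.59 CPM, and YLR159W 49.0 and 41.4 against 2.70 and 3.07 CPM. With 2 closely alike experiments these values had no further replicate check.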
